A study of Drosophila melanogaster with 4 samples.

Results

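Broad Homothorax peaks were defined as peaks of the authors' list that lie on chromosome arms 2L, 3L or 3R and are wider than 2000 bp, from the start to the end that the peak caller gave. There were 336 of them among the 4266 peaks on these arms and the 6207 peaks of the whole list. A block of closely packed peaks on 2L, at 14416154 to 14588444, held 19 of the 336, so values are given with the block and for the 317 broad peaks outside it. The peaks were selected on their width, and the score comes from the same ChIP pile-up, so both are described below with no test. All positions are 1-based on FlyBase release 5. Gene names, exons, introns and UTRs are not given, because the gene table at hand describes release 6.

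Homothorax belongs to the TALE class of homeodomain proteins. In flies it brings Extradenticle into the nucleus and binds DNA with it, and the complex acts as a cofactor of Hox proteins in giving body segments and limb parts their identity. A sequence-specific factor that sits on a few bases usually gives a compact peak about as wide as the sheared DNA fragments. A wider peak is drawn where signal stays above the caller's limit over a longer stretch, and a list of starts and ends does not show whether one site or many lie inside it.

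The study set 2 Homothorax ChIP libraries against 2 input DNA libraries, all from whole y cn bw sp embryos labelled 0 to 8 h. The serum was a crude guinea pig polyclonal raised against the full-length, His-tagged protein. Both groups shared one genotype, with the visible markers y[1], cn[1], bw[1] and sp[1]; the alleles oc[R3.2], lab[R4.2] and CG33964[R4.2]; and Rh6[1], GstD5[1], MstProx[1], LysC[1], Gr22d[1] and Gr22b[1]. The sex of the embryos was unknown, and the shared extract protocol mentions a laying window of 8 to 16 h as well as an 8 h lay, which differs from the stage label. The embryos hold many cell types in one extract, so binding in more cells and stronger binding in fewer cells cannot be told apart. The list carries one score per peak for the whole series, so no value below has a replicate error, and the read depth is unknown.

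Broad peaks were a small share of the list by number and a large share by length. They made up 7.88% of the peaks on the 3 arms (95% exact binomial interval 7.09 to 8.73%, which covers sampling of peaks only) and 32.4% of the 3486 kb that peaks covered there. Without the block these shares were 7.51% and 29.8%. The median broad peak was 2744 bp wide, with an interquartile range of 2316 to 3548 bp, against a median of 454 bp and an interquartile range of 292 to 775 bp for the 3930 narrower peaks. Most broad peaks lay near the limit, since 202 of 336 (60.1%) were at most 3000 bp wide. A width over 5000 bp was reached by 34, and the 4 peaks over 10000 bp all belonged to the 2L block.

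The limit of 2000 bp fell in an unbroken range of widths. The 5 broad peaks nearest to it were 2017, 2019, 2020, 2025 and 2027 bp wide and scored 58.36, 62.19, 71.45, 70.00 and 87.35. The 5 narrower peaks nearest to it were 1998, 1998, 1995, 1986 and 1986 bp wide and scored 48.42, 131.37, 91.96, 56.99 and 65.88. The scores on the broad side therefore lay inside the range of those on the narrower side, and none of these 10 peaks was in the block.

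The authors' score, a number per peak whose scale none of the sources used here gives, was higher for broad peaks. Its median was 83.5 in broad peaks (interquartile range 55.1 to 132) and 15.5 in narrower peaks (11.0 to 25.6). Scores reached at least 40 in 293 of 336 broad peaks (87.2%) and at least 100 in 136 (40.5%), against 18.8% and 4.99% of all peaks on the 3 arms. Nothing is read from these differences, because width and score are read from the same pile-up. Without the block the median was 82.0, and 86.8% of broad peaks scored 40 or more.

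**Figure D1:**
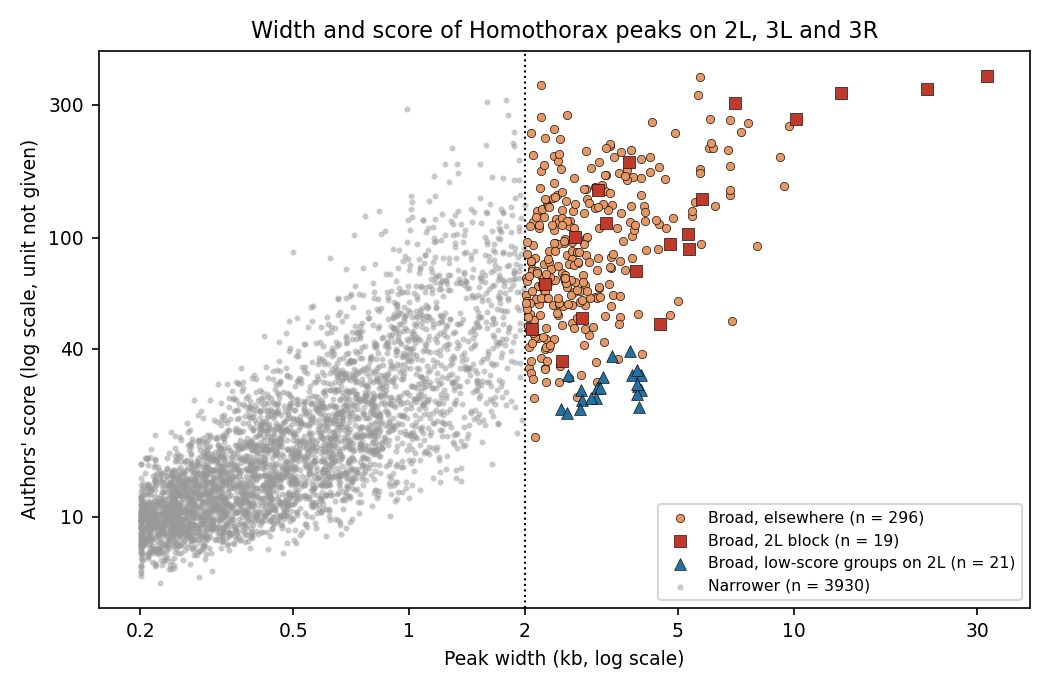
Each point is a peak on 2L, 3L or 3R, with its width in kb across and the authors' score upwards, both on log scales; the dotted line marks 2 kb. The 21 broad peaks of the low-score groups on 2L (triangles), picked for scores under 40, lie between 23.43 and 39.21, under most broad peaks of like width. The 4 widest squares belong to the 2L block.

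Width and score ran together less closely within the broad peaks than below the limit. Spearman's rho between them was 0.34 over the 336 broad peaks and 0.79 over the 3930 narrower peaks. It was 0.30 without the block. These values are a description, because all peaks share the same libraries and the widths of the 2 sets are spread differently. Interquartile ranges of width were 2316 to 3548 bp for broad and 292 to 775 bp for narrower peaks, with widest peaks of 31931 and 1998 bp. In broad peaks of 2000 to 2500 bp the median score was 71.9 (n = 126), and in those of 2500 to 3000 bp it was 71.4 (n = 76). It was 84.8 at 3000 to 4000 bp (n = 75), 116 at 4000 to 5000 bp (n = 25) and 174 at 5000 to 10000 bp (n = 30). Score therefore changed little up to 3000 bp and was higher in the wider classes. If the score has a true zero, its median per kb of width was 31.8 at 2000 to 2500 bp and 25.0 at 5000 to 10000 bp. Without the block and the low-score groups, the median scores of these classes were 72.5, 76.5, 106, 124 and 179, from narrowest to widest. Per kb they were 32.6, 28.5, 27.7, 30.1 and 26.1, which is not a steady fall.

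The lists of the widest and of the highest-scoring broad peaks overlapped in part. Of the 10 widest broad peaks 3 were also among the 10 with the highest score, and 24 were shared between the lists of 50. Outside the block the numbers were 3 of 10 and 21 of 50. The widest outside it was 2L 21842464 to 21852218, which spanned 9.76 kb and scored 251.42. Next came 3R 6448802 to 6458260, the widest of its arm at 9.46 kb, with a score of 153.19, and 3R 11467925 to 11477173 at 9.25 kb with a score of 195.18. The widest on 3L, at 5971371 to 5979406, spanned 8.04 kb but scored 93.12. A 6.93 kb peak at 3R 681268 to 688192 scored 50.22, the lowest value of any broad peak over 5000 bp.

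Other broad peaks reached high scores in little more than 2 kb. The peak at 3L 14570435 to 14572637 was 2203 bp wide and scored 351.64, which is 160 per kb. The peak at 3R 2728003 to 2730213 was 2211 bp wide and scored 270.82. At 2L 21788757 to 21791328 a peak of 2572 bp scored 274.77, whereas a peak of exactly the same width at 2L 21477136 to 21479707 scored 23.43. Those 2 peaks lie on the same arm and differed 11.7-fold in score, if the score has a true zero.

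Further peaks among the widest or highest-scoring outside the block combined both traits to different degrees. At 2L 19216355 to 19222419 a 6.07 kb peak scored 266.20, and at 2L 19319773 to 19327406 a 7.63 kb peak scored 258.41. The peak at 3L 11405991 to 11412829 covered 6.84 kb with a score of 263.64. On the same arm, 19171430 to 19178278 was slightly wider at 6.85 kb and scored 181.17. On 3R, 2585738 to 2590035 spanned 4.30 kb and scored 259.05, and 817390 to 824217 spanned 6.83 kb and scored 142.68.

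The share of peaks that were broad differed strongly between score classes, and high scores did not always come with breadth. These shares are a description only, because width and score are read from the same pile-up. Below a score of 20, 1 of 2518 peaks was broad. From 40 to below 60 the share was 18.4% of 309 peaks, from 80 to below 100 it was 43.3% of 97, and from 150 to below 200 it was 75.6% of 45. From 200 to below 300 it was 77.4% of 31 peaks (exact binomial interval 58.9 to 90.4%), and at 300 or more it was 7 of 9, or 3 of 5 without the block. Of the 10 highest-scoring peaks on the 3 arms, 7 were broad. The 3 that were not lay at 3L 14964455 to 14966238 (1784 bp), 3R 2862328 to 2863923 (1596 bp) and 2L 5403360 to 5404347 (988 bp), with scores of 310.98, 306.85 and 289.85.

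**Figure D2:**
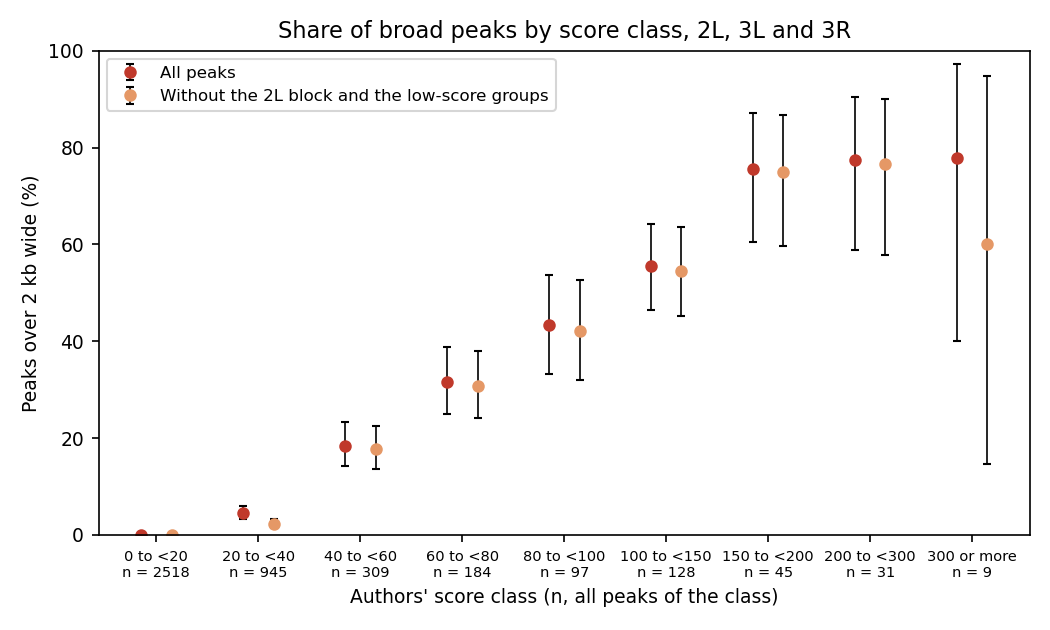
The share of peaks wider than 2 kb, in percent, is plotted for 9 classes of the authors' score, for all peaks on 2L, 3L and 3R and without the 2L block and the low-score groups; bars are 95% exact binomial intervals. The share is 18.4% at 40 to below 60 and 75.6% at 150 to below 200, and the class from 20 to below 40 is 4.44% with all peaks and 2.21% without those regions.

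About as many low-scoring broad peaks lay in a small part of 2L as on all the rest of the arms. Under a score of 40 there were 43 broad peaks, of which 21 lay in a pair of groups on 2L, 1 in the block and 21 elsewhere. The lowest of all, at 3R 2714555 to 2716684, was 2130 bp wide and scored 19.27. The next 4 were all in the groups on 2L. They lay at 21477136 to 21479707 with 23.43, at 21416903 to 21419383 and 21522749 to 21525529 with 24.30 each, and at 21531380 to 21535336 with 24.74.

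Low-score groups of broad peaks occupied 2L 21416903 to 21440769 and 2L 21451050 to 21538924. These groups were singled out after their values were seen, as groups of at least 4 broad peaks that all scored under 40. They held 4 and 17 broad peaks and were separated by a gap of 10.3 kb. Their broad peaks were alike in width, at 2.48 to 4.01 kb, and in score, at 23.43 to 39.21 with a median of 28.8. In the same range of widths the other 142 broad peaks had a median score of 86.5, with an interquartile range of 62.7 to 131, and 7 of them scored 39.21 or less. The lower scores of the low-score groups follow from the cut that picked them. The highest-scoring narrower peak among them had 36.13 in the first group and 29.76 in the second.

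Neighbouring broad peaks in the low-score groups started about 5 kb apart. The distance from the start of one broad peak to the start of the next had a median of 5.13 kb and an interquartile range of 4.88 to 5.86 kb (19 distances), and 10 of the 19 fell between 4.5 and 5.5 kb. From 21451050 the first steps were 4.97, 5.13 and 6.06 kb, and the longest step of the 2 groups, 10.1 kb, was followed by one of 5.02 kb. Between neighbouring broad peaks of the other groups outside the block the median step was 6.34 kb with an interquartile range of 4.78 to 9.19 kb (88 distances), and 15 of 88 fell between 4.5 and 5.5 kb. In the block the median was 7.01 kb and 3 of 18 steps fell in that window. The window lies around the median step of the low-score groups themselves, so the counts in it are a description and test no spacing. Narrower peaks lay between the broad ones. Over peaks of any width, the median step was 1.61 kb in the first low-score group and 1.75 kb in the second. Whether the sequence there is repeated was not examined, since no genome of release 5 was used.

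The 2L block held wider and, at the median, higher-scoring broad peaks than the rest. It was chosen as the run that holds the widest peak, and score is read from the same pile-up as width. Both differences are therefore described without a test, and the greater width follows in part from the choice. The 19 broad peaks of the block added up to 137 kb, which was 79.4% of the block and 12.1% of the length of all broad peaks on the 3 arms. Their widths had a median of 4498 bp, against 2697 bp for the broad peaks elsewhere, and their scores a median of 103, against 82.0. Scores inside the block were uneven. The 31.9 kb peak at 14426979 to 14458909 scored 379.52, but the peak just before it, at 14424398 to 14426891 and 87 bp away, scored 36.00. Between 14503096 and 14507875 a 4.78 kb peak scored 95.15, with peaks of 302.73 and 265.76 lying 45 and 65 bp from its edges. Farther along came a stretch of lower scores, with 75.63, 68.31, 49.08 and 90.93 over 4 successive broad peaks from 14518673 to 14541524. The next broad peak, at 14545140 to 14548882, scored 186.58. It was followed by the 13.3 kb peak that starts at 14552058 and scored 330.10. The 25 narrower peaks of the block had a median score of 14.6, close to the 15.5 of narrower peaks on the arms.

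Many wide peaks of the block had another peak, of any width, very close by. Of its 19 broad peaks 9 (47.4%, exact binomial interval 24.4 to 71.1%) had another peak within 100 bp. Elsewhere this held for 18.3% of the 317 broad peaks (14.2 to 23.0%). Another broad peak lay within 100 bp of 5 of the 19. The block is by definition a run of peaks with gaps of at most 5 kb, so short gaps are in part built into it. Its peaks are neighbours of each other, and 1 short gap can count for the peaks on both sides. The intervals treat peaks as independent, so the shares are a description and no difference is read from them. Gaps between neighbouring broad peaks of the block had a median of 0.63 kb and reached 5.62 kb. The smallest gap between any peaks on the 3 arms was 44 bp, and it occurred, among other places, beside the 22.2 kb peak of the block at 14469186 to 14491422, which scored 340.68. With gaps this short, the count and widths in the block rest on where the caller ended each peak. Spearman's rho between width and score was 0.78 over its 19 broad peaks, against 0.30 over the 317 elsewhere, which include the low-score groups. It was 0.71 over the 38 broad peaks in the other groups of 4 or more apart from the low-score groups, and 0.41 over all broad peaks outside the block and the low-score groups. The ranges of width are unlike, because the block was chosen for its widest peak. Widths reached 31931 bp in the block and 9755 bp elsewhere.

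Broad peaks lay close to other peaks. The median gap from a broad peak to the nearest peak of any width was 234 bp, against 499 bp for narrower peaks, and 81.8% of broad peaks but 62.9% of narrower ones had a neighbour within 1 kb. The median number of other peaks within 10 kb of the edges was 7 for broad and 5 for narrower peaks. Long runs, meaning at least 10 peaks in a row with no gap over 5 kb, held 58.9% of broad and 34.0% of narrower peaks. At a score of 100 or more the difference was smaller, with 57.4% of 136 broad peaks and 44.2% of 77 narrower peaks in such runs. Without the block 56.5% of broad peaks were in such runs. The narrower peaks nearest in width, at 1500 to 2000 bp (n = 206), were more like broad peaks than narrower peaks as a whole. Their median gap to the nearest peak was 338 bp, their median number of peaks within 10 kb was 7, and 51.0% lay in long runs.

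**Figure D3:**
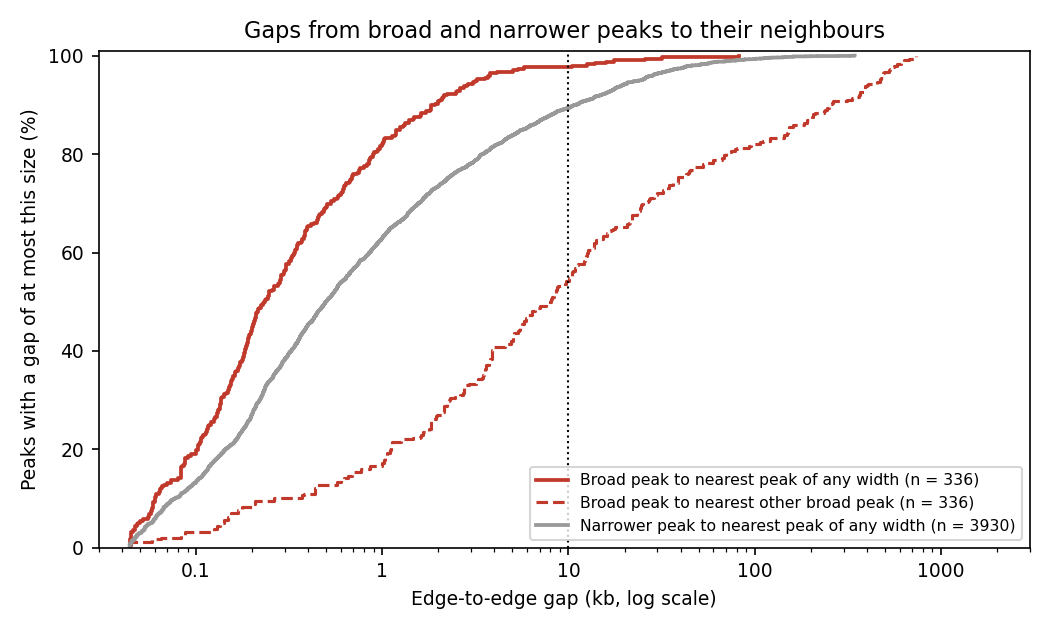
Cumulative share of peaks, in percent, by the edge-to-edge gap to the neighbour in kb on a log scale, for broad peaks to any peak, broad peaks to the nearest other broad peak (dashed) and narrower peaks to any peak; the dotted line marks 10 kb. At 10 kb the curves stand at 97.6%, 54.2% and 89.4%.

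A broad peak with nothing around it was rare. No other peak lay within 10 kb of 8 of the 336 (2.38%), against 10.6% of narrower peaks and 5.34% of those 1500 to 2000 bp wide. Of the 8, 3 belonged to 3L and 5 to 3R. The strongest was 3R 8470493 to 8476138, 5.65 kb wide with a score of 325.39 and 17.6 kb from the nearest peak. The farthest from any neighbour was 3R 11243096 to 11245789, a 2694 bp peak that scored 163.97 and lay 82.1 kb from the next. The other 6 scored between 31.16 and 125.29.

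Broad peaks also had broad neighbours in about as many cases as not. Another broad peak lay within 10 kb of 182 (54.2%, exact binomial interval 48.7 to 59.6%), and of 51.4% without the block. The other 154 stood alone at that distance, 104 formed groups of 2 or 3, and 78 belonged to 10 groups of 4 or more. Peaks that stood alone scored a median of 83.4 and those in groups of 2 or 3 a median of 89.6. The 78 peaks in groups of 4 or more scored a median of 65.3, and the 38 of them outside the block and the low-score groups, which were set aside for their low scores, a median of 90.2. Median widths were 2589 bp for peaks alone, 2670 bp in groups of 2 or 3 and 3231 bp in groups of 4 or more (2899 bp over the 38).

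**Figure D4:**
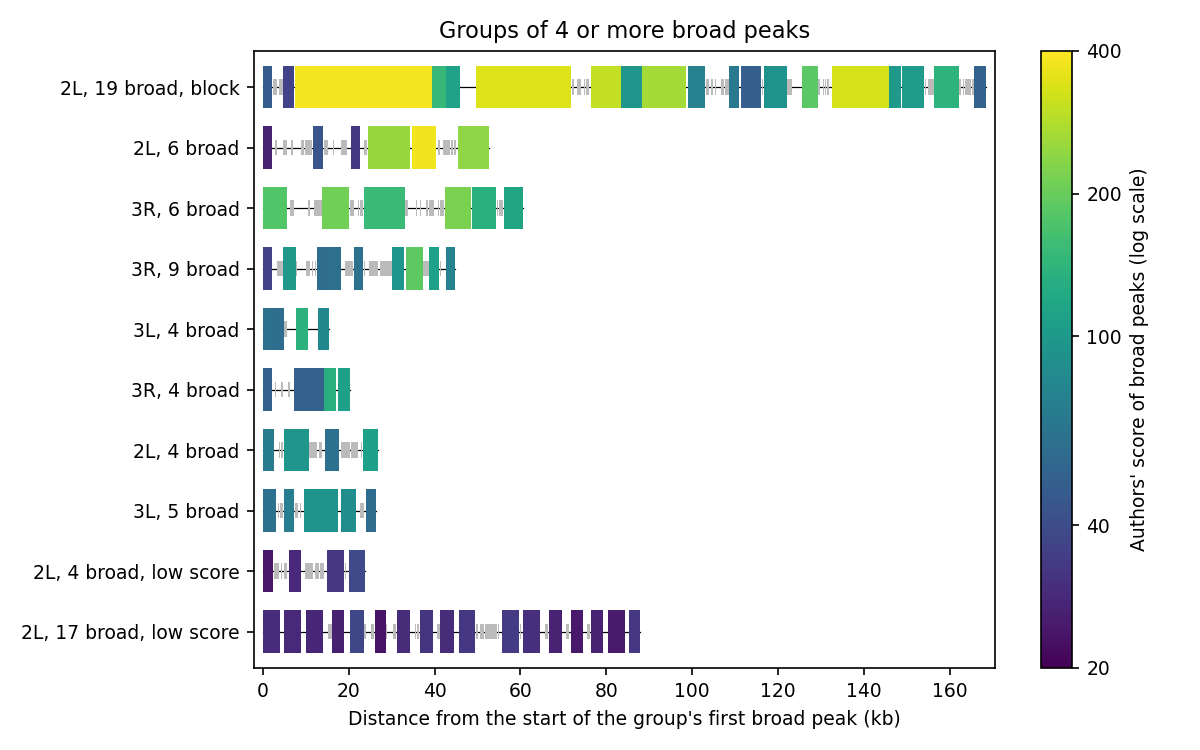
Groups of 4 or more broad peaks with gaps of at most 10 kb between them, one per line and ordered by top score; distance in kb runs from the start of the group's first broad peak, tall bars are broad peaks coloured by the authors' score and short grey bars are narrower peaks. The block runs over 168 kb, while the 17 peaks of the lowest line are all dark, with scores of 23.43 to 37.65.

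The 7 groups outside the block and the low-score groups differed in make-up. At 3R 6425255 to 6485758, 6 broad peaks of 4.39 to 9.46 kb all scored between 115.73 and 217.75, so this group was wide and strong throughout. At 2L 21818029 to 21870733, 6 broad peaks ran from 26.57 to 375.76, with the 9.76 kb peak and the 5.72 kb peak at 21852662 to 21858385 lying side by side and a 7.31 kb peak at 21863425 to 21870733 that scored 240.01 beyond them. The group with the most broad peaks, 9 at 3R 21821569 to 21866433, had a median width of 2.59 kb and scores of 36.13 to 190.84. On 3L, 5 broad peaks at 5961787 to 5988140 scored 57.14 to 93.12 and covered 72.9% of 26.4 kb, and 4 at 10840426 to 10855941 scored 57.68 to 137.16. The groups of 4 at 2L 1420662 to 1447457 and 3R 674046 to 694249 had top scores of 107.94 and 133.11.

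The share of broad peaks was 9.52% of 1376 peaks on 2L, 6.73% of 1353 on 3L and 7.42% of 1537 on 3R. On 2L it was 8.41% without the block and 7.07% without the block and the low-score groups. The exact binomial intervals were 8.02 to 11.2% for all of 2L, 5.45 to 8.19% for 3L and 6.16 to 8.84% for 3R. Those regions were picked for their broad peaks or low scores and nothing like them was taken from 3L or 3R, so a lower share and a higher median score of 2L without them follow from the choice. The median score of broad peaks was 69.3 for 2L as a whole, 83.5 for 2L without those regions, 84.6 for 3L and 95.8 for 3R. Median scores of narrower peaks were 15.5, 15.8 and 15.2 on 2L, 3L and 3R.

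Along the arms, broad peaks were spread unevenly. Over 74 windows of 1 Mb the mean was 4.54 ± 5.19 broad peaks per window (SD, n = 74 windows), the median was 3, and 8 windows held none. The 13 fullest windows held 168 of the 336. The window at 2L 21 to 22 Mb held 30, of which 21 were in the low-score groups, and the window at 2L 14 to 15 Mb held 22, of which 19 were in the block. The fullest on the other arms were 3R 2 to 3 Mb with 19 broad peaks and a median score of 138, and 3L 15 to 16 Mb with 17 and a median of 87.4. Windows with more peaks of any width also held more broad ones, with a Spearman rho of 0.77 over the 74 windows, in which broad peaks are part of both counts.

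Narrower peaks beside broad ones had scores much like the rest. Of the 3930 narrower peaks, 1384 (35.2%) lay within 10 kb of a broad peak. Their median score was 15.6 and their median width 479 bp, against 15.4 and 441 bp for the narrower peaks farther away. Without the block the median scores were also 15.6 and 15.4.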

How the data were processed

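ChIP-seq of Homothorax was analysed from 1 deposited peak list. Per the file headers, its peaks were written by MACS on FlyBase release 5; the submitters' processing notes name build BDGP5, CASAVA (1.7.0.2 and 1.7.0.3), BWA and MACS2. Per the labels' protocols, embryos were fixed for 15 min with 1.8% formaldehyde. The score is deposited by the authors, and none of the sources used here gives its scale, the calling threshold or any pooling of replicates. Width is end minus start plus 1 bp. Gaps run from edge to edge on one arm. The block is the run of peaks with gaps of at most 5 kb that holds the widest peak. Groups join broad peaks with gaps of at most 10 kb.

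No tests were run. Intervals are 95% exact binomial (Clopper-Pearson), or order-statistic intervals for medians, and treat peaks as independent. For the share of covered length, base pairs are treated as independent instead. Calculations used Python 3.11.15, numpy 2.4.6, pandas 2.3.3, scipy 1.17.1 and matplotlib 3.10.9, and were checked on simulated peaks. Peaks named are the 10 widest, 10 highest-scoring and 5 lowest-scoring, those nearest to 2000 bp, the widest per arm and groups of 4 or more, with and without the block; any other was chosen after its values were seen. The members and lists were chosen with earlier results of these data known. Alternatives were other width limits, the highest-scoring 50%, merging of peaks closer than 1 kb and left-out regions.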

Additional observations from a re-analysis of the deposited data

How the results depend on the processing

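Numbers depended mainly on the width limit and on merging. With a limit of 1500 bp there were 542 broad peaks, 12.7% of peaks and 42.6% of covered length, with a median score of 71.7, 64.6% beside another broad peak within 10 kb and 81.7% scoring 40 or more. With 3000 bp the values were 134 broad peaks, 3.14% of peaks, 18.4% of length, a median score of 117 and 47.0% with a broad neighbour. Merging of peaks closer than 1 kb left 582 broad peaks, 24.4% of peaks and 69.5% of length, with a median score of 64.1, 62.2% with a broad neighbour and 72.2% scoring 40 or more; 314 of the 582 contained no peak that was broad before. The highest-scoring 50% of peaks still held 336 broad peaks, at 15.8% of peaks and 41.7% of length. Without the block the length share was 29.8%, and the other measures stayed inside their intervals. Leaving out the low-score groups, chosen after seeing the data, gave 31.2% of length and 93.0% scoring 40 or more. The higher share scoring 40 or more follows from the choice, because all broad peaks of these groups scored under 40. Without the block as well, the shares were 28.5% of length and 92.9% scoring 40 or more, and 48.0% had a broad neighbour. Over all 336 broad peaks, the share with a broad neighbour was 54.2% within 10 kb, 42.0% within 5 kb and 77.4% within 50 kb. In all, 27 of 44 alternatives left the interval of the value or changed the count more than 1.5-fold, up or down, and 17 did not. The highest-scoring 50% kept every broad peak. Its count, median score, share with a broad neighbour and share scoring 40 or more therefore could not move. These are part of the 17 and say nothing about stability. The interval of the length share, 32.39 to 32.49%, treats base pairs as independent and is too narrow to judge a change. Every alternative of the length share left it, and these are part of the 27. No paired analysis was possible because the list holds no values per library, and no replicate could be left out. Without read depth, no limits from depth could be given.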

Other observations

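Broad peaks were also listed on other arms, with 64 on 2R and X together. They were 5.31% of the 980 peaks on 2R (exact binomial interval 3.99 to 6.90%) and 1.99% of the 603 peaks on X (1.03 to 3.45%). The 45 peaks on chromosome 4 included none, which allows a share of up to 7.87% by the same kind of interval. The share of peak-covered length in broad peaks was 22.8% on 2R and 9.05% on X.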
